A study of Bos taurus with 40 samples.

Results

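Bovine conceptuses cloned from the donor line of highest efficiency were compared with those cloned from the line of lowest efficiency. The comparison holds 20 of the 40 arrays analysed here: the 10 arrays labelled with reproduction mode SCNT-5538, called SCNT High, and the 10 labelled SCNT-0029, called SCNT Low. Each array measured the extra-embryonic (EE) tissue of 1 Day 18 conceptus on a nylon membrane that carries 10184 cDNA probes. All conceptuses of both groups came from somatic cell nuclear transfer (SCNT), in which the nucleus of an ear-skin fibroblast of an adult Holstein female is placed in an enucleated oocyte. They were cultured to blastocysts, transferred to recipient cows and collected at elongation, and the embryonic disc was dissected off before the EE tissue was frozen. The lines were classed in the study by how many transferred clones went to calving, and no other treatment or engineered genetic change is given for either group. The paper placed fewer SCNT Low than SCNT High conceptuses in its longest, filamentous class. Its filamentous and early filamentous classes together, which it took as normal, held equally many of both groups. More SCNT Low than SCNT High conceptuses had an abnormal or missing embryonic disc. The labels do not give the stage of each conceptus, so its part in the differences was not tested. Each group rests on 1 line from 1 donor animal, so donor animal, cell line and cloning efficiency cannot be told apart. Several embryos were transferred to each recipient, and the labels do not say which conceptuses shared one. The p-values set the group difference against the spread between these conceptuses, treated as independent. They may be too small where conceptuses shared a recipient. The remaining arrays are those of 10 conceptuses from in vitro fertilisation (IVP) and of 10 from a line of intermediate efficiency (SCNT Med), and they serve here as side values. By the paper all SCNT conceptuses were female, whereas those of IVP were of both sexes. The part of sex in the comparisons with IVP was not tested here.

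At this stage the bovine conceptus has grown from a sphere into a long filament. Its EE tissue consists of the trophoblast, the outer layer that secretes the pregnancy signal interferon tau and later forms the placenta, and of the extra-embryonic endoderm that lines it from within, with extra-embryonic mesoderm spreading between these layers. Many cloned pregnancies fail around and after this time, often with an abnormal placenta.

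The array names its probes by the accession of a cDNA clone. A gene name was available for 16 of them, through the table of PCR primers of the study, and 5 of those 16 were among the probes that differed between SCNT High and SCNT Low. Their primers, written from 5′ to 3′, are shown because they are the only stretches of these transcripts held here and so tie each probe to a gene. C5orf13 is listed under the current symbol NREP in RefSeq.
PGAM5 forward: tctcccctaccccttgttgg
PGAM5 reverse: aagcccctggtcagacttcc
BIN3 forward: cagaaacccgcagacaggtaa
BIN3 reverse: atgtggtcccaactgtgcag
C5orf13 forward: tcagcattgtaggttgagcga
C5orf13 reverse: ggcgaggctactgaaaggaag
MSH3 forward: atgatggaatcgccattgct
MSH3 reverse: attccccacctgctgtgagta
CCNE1 forward: agaatgaggctctgattggca
CCNE1 reverse: gtgctcgggaagaaatcacac

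The arrays of both groups overlapped in brightness but varied widely. The median spot brightness of an array was 41.4 to 102 in SCNT High and 32.7 to 121 in SCNT Low. The median spot signal over local background of an array lay between 5.07 and 6.94 in SCNT High and between 5.42 and 7.58 in SCNT Low, and the number of arrays limits the precision. The cDNA spots brighter than the water spot of their array numbered 8010 to 9813 in SCNT High (median 8704.5). In SCNT Low they numbered 7874 to 9907 (median 9228.5). Levels are given as log2 of the spot signal with the mean of the array set to 0. By the dates stored with the arrays they were quantified in 3 sessions, which covered 3, 3 and 4 SCNT High arrays and 3, 5 and 2 SCNT Low arrays. Being brighter than water cannot check the tissue label, since most cDNA spots of every array were. The counts for a few probes with names are given as a description. The trophoblast gene PLIN2 was brighter than water on 19 of the 20 arrays (9 SCNT High and 10 SCNT Low), the endoderm gene FN1 on 20 (10 and 10), and the spot of POU5F1, a gene of the embryonic disc, on 20 as well.

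Which transcripts separate conceptuses of the highest and the lowest cloning efficiency was tested for every cDNA probe. Of 10184 probes, 10 passed an adjusted p of 0.10 (limma, Benjamini-Hochberg), which is 0.0982% of those tested. A stronger array signal in SCNT High was given by 9 of them (0.0884%): PGAM5, BIN3, C5orf13, MSH3 and the unnamed clones CR551977, CR553385, CN435027, CR550746 and CR553112. The cell cycle gene CCNE1 was the single probe with a weaker array signal in SCNT High (1 probe, 0.00982%). The paper's quantitative PCR, run on some of the conceptuses, did not bear out BIN3 and CCNE1 between SCNT Low and SCNT High. For MSH3 the paper says the same of another comparison. An unadjusted p under 0.05 was reached by 408 probes, or 4.01%, where 509.2 would be counted if no probe differed. With all 4 groups in a single limma model, or without the arrays of the third session, 0 probes were called (386 and 196 at an unadjusted p under 0.05). PGAM5, CR551977, CR553385, BIN3, CN435027, C5orf13 and MSH3 stayed past the threshold whichever of the 20 arrays was left out, whereas CR550746 did so for 7 arrays, CR553112 for 6 and CCNE1 for 6.

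**Figure D1:**
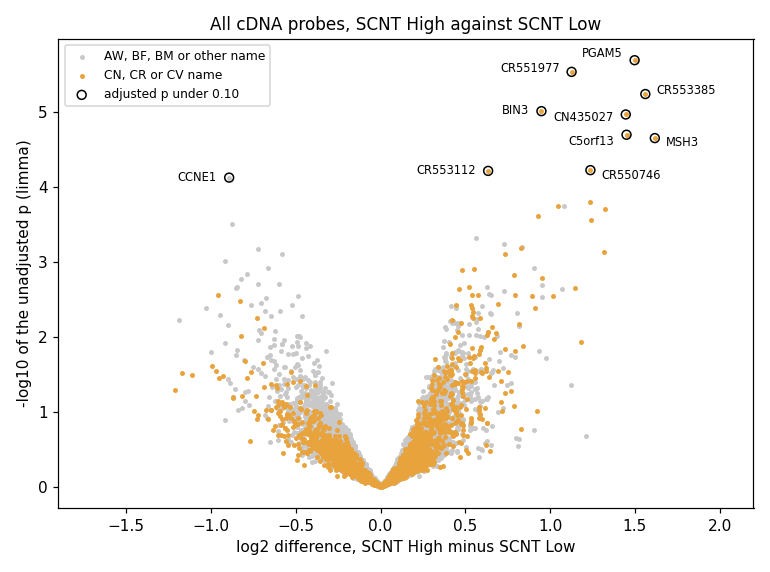
Each point is 1 of 10184 cDNA probes, with the log2 difference of SCNT High minus SCNT Low on the x axis and the -log10 of the unadjusted limma p on the y axis. Orange points are probes with CN, CR or CV names, and circles mark the 10 probes with an adjusted p under 0.10, of which 9 lie on the right and only CCNE1 on the left.

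PGAM5, a protein phosphatase of mitochondria that takes part in mitochondrial quality control and cell death, had the smallest p of all probes. Its level was 2.57 at the lowest, 3.10 at the median and 3.77 at the highest in SCNT High, against 0.41, 1.57 and 2.70 in SCNT Low. Of the 10 SCNT High arrays, 8 exceeded the whole SCNT Low range, and the groups overlapped in the rest. The PGAM5 difference was 1.50 ± 0.24 on the log2 scale (SE, n = 10 and 10), a 2.83-fold higher signal in SCNT High, with an adjusted p of 0.0148. It was 1.44 within session 1, 1.62 within session 2 and 1.56 within session 3.

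BIN3, a BAR domain protein that shapes membranes and the actin skeleton, showed the narrowest spread of the named genes called as higher. BIN3 levels ran from 2.67 through a median of 3.37 to 3.69 in SCNT High and from 1.76 through 2.25 to 2.93 in SCNT Low. All 10 SCNT High arrays were above the SCNT Low mean, as they were for 98 probes in all (0.962%), and 8 of them exceeded the whole SCNT Low range. The BIN3 difference was 0.95 ± 0.17 (1.93-fold, adjusted p = 0.0219), and it was 0.92, 0.85 and 1.08 within sessions 1, 2 and 3.

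C5orf13 encodes a small protein that has been linked to cell movement and to signalling by transforming growth factor beta. Its level spanned 2.27 to 4.26 in SCNT High, with a median of 3.37, and 0.28 to 2.98 in SCNT Low, with a median of 2.12. The groups overlapped, with 7 SCNT High arrays above the SCNT Low range. The C5orf13 signal was 2.73-fold higher in SCNT High (1.45 ± 0.27 on the log2 scale, adjusted p = 0.0324), with differences of 1.23, 1.60 and 2.13 within the 3 sessions.

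MSH3, a DNA mismatch repair protein that recognises small loops of unpaired bases, had the largest difference of all 10184 probes, 1.62 ± 0.31 on the log2 scale, or 3.07-fold (adjusted p = 0.0324). MSH3 levels ran from 1.61 to 3.80 in SCNT High with a median of 2.46, and from -0.96 to 2.08 in SCNT Low with a median of 1.02. With 9 of the 10 SCNT High arrays above the SCNT Low range, the overlap was small. The difference was less even than that of the other named genes across the sessions, with 0.80 in session 1, 2.76 in session 2 and 0.88 in session 3. The lowest value, of conceptus BC256 in SCNT Low, came from a spot with a shape regularity score of 0.404, the lowest of the 20 arrays for this probe. The MSH3 spot lies in the first column of the membrane, where neighbouring spots were also brighter in SCNT High, by a mean of 0.51 over its 5 neighbours.

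CCNE1 encodes cyclin E1, which drives cells from the growth phase into DNA synthesis. Its level was between -0.81 and 0.19 in SCNT High, with a median of -0.37, and between -0.12 and 1.48 in SCNT Low, with a median of 0.49. Below the whole SCNT Low range lay 7 of the 10 SCNT High arrays, and at least 7 did so for 4 probes in all (0.0393%). The CCNE1 signal fell by 0.89 ± 0.19 on the log2 scale, or 1.86-fold, in SCNT High relative to SCNT Low (adjusted p = 0.0764), and the difference was -1.13, -1.01 and -0.49 within sessions 1, 2 and 3. Its 8 neighbouring spots differed by a mean of -0.23.

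**Figure D2:**
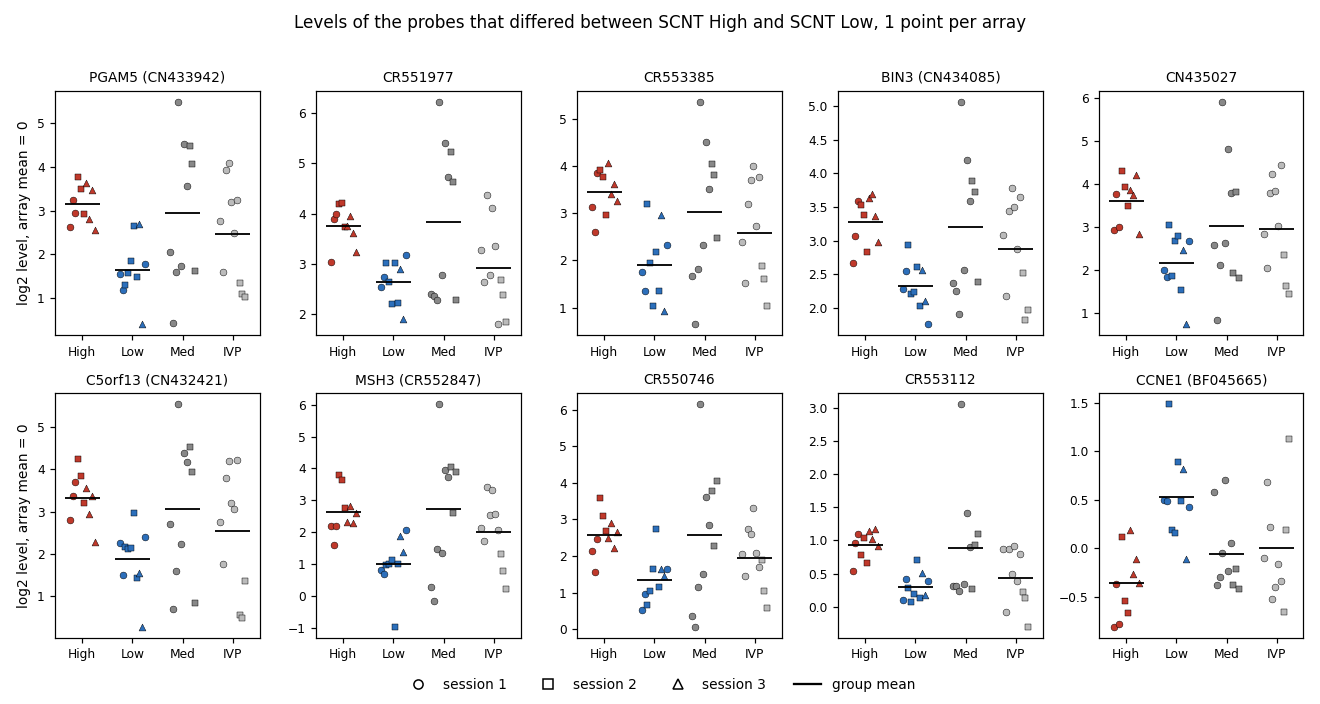
Each panel shows 1 of the 10 called probes, with the level on the y axis (log2, mean of the array set to 0) and 1 point per array. Red points are SCNT High, blue SCNT Low, dark grey SCNT Med and light grey IVP (n = 10 each), the symbol gives the session, and lines are group means. SCNT High lies above SCNT Low in the first 9 panels, each with some overlap, and below it for CCNE1.

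The other 5 probes called as higher are clones without a gene name. CR553385 was 2.95-fold higher in SCNT High (1.56 ± 0.27, adjusted p = 0.0195), with levels of 2.59 to 4.08 there and of 0.92 to 3.20 in SCNT Low. CN435027 was 2.73-fold higher (1.45 ± 0.26, adjusted p = 0.0219), with levels of 2.85 to 4.30 against 0.75 to 3.05. For both clones, 7 SCNT High arrays exceeded the SCNT Low range. CR551977 was 2.18-fold higher (1.13 ± 0.19, adjusted p = 0.0148), with levels of 3.04 to 4.20 against 1.91 to 3.18, and 9 SCNT High arrays exceeding the latter. CR550746 was 2.36-fold higher (1.24 ± 0.25, adjusted p = 0.0690), but with levels of 1.56 to 3.59 against 0.51 to 2.74, only 3 SCNT High arrays cleared the SCNT Low range. CR553112 had the smallest of the called differences, 0.63 ± 0.13 (1.55-fold, adjusted p = 0.0690), with 0.55 to 1.17 in SCNT High and 0.07 to 0.71 in SCNT Low and 8 SCNT High arrays above that range. Over the whole array, 48 of the 10184 probes (0.471%) had at least 7 SCNT High arrays above the SCNT Low range. For no probe did all 10 arrays of a group lie beyond all 10 of the other (0 of 10184, 0%, in either direction).

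The direction of the called differences held in each session. All 9 probes were higher in SCNT High within session 1 (differences of 0.57 to 1.44), within session 2 (0.55 to 2.76) and within session 3 (0.72 to 2.13). The sessions are parts of the same arrays that called these probes, so the shared direction is a description and no separate evidence. The 3 higher and 11 lower probes next in order of p, which were not called, kept their direction in each session too. The sessions taken singly gave other counts: within sessions 1 and 2 limma called 0 probes (312 and 181 at an unadjusted p under 0.05) and within session 3 it called 24, of which C5orf13 is 1 of the 10 listed above. All 10 probes were brighter than the water spot on each of the 20 arrays. Spots marked as poor by the quantification software occurred on the 6 arrays of the third session, between 2067 and 2847 per array, and for the called probes on up to 4 SCNT High arrays and 1 SCNT Low array. When marked spots were left out, 2 of the 10 calls remained, PGAM5 and CN435027.

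Conceptus BC271 of SCNT Low, from the third session, had the lowest value of the 20 arrays for 5 of the 10 called probes, and conceptus BC244 of SCNT High, from the second, had the highest value for 5.

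Within the groups, the higher probes also varied together. After the group means were taken off, Pearson r between pairs of the higher probes other than MSH3 was between 0.17 and 0.77 over the 20 arrays (median 0.50, 28 pairs, all above 0). MSH3 stood apart, with r from -0.27 to 0.22 with the other 8. CCNE1, which differed between the groups in the opposite direction, had r of -0.07 to 0.70 with the 9 higher probes (median 0.50), and of -0.05 to 0.26 after the local centring described below. These values share the arrays, their centring and the membrane. The r of pairs over all cDNA probes was not computed, so the values are given as a description and not as particular to these probes.

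The accessions of the called probes were not spread evenly. Probes with CN, CR or CV accessions were 2250 of the 10184, and all 9 probes called as higher were among them. Probes with AW or BF accessions numbered 6885 and held CCNE1 alone of the called probes, and the 951 with BM accessions held 0. As a class, CN, CR and CV probes had a median difference of 0.01, with 6.27% at an unadjusted p under 0.05. BM probes, which share this part of the membrane (spot rows 97 to 142, against 98 to 144 for CN, CR and CV), had a median of 0.05 and 6.31%. AW and BF probes, in spot rows 1 to 96, had a median of -0.01 and 2.96%. The tissue from which each clone was made is not tied to these accessions in the sources used here.

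Position moved with the difference in parts of the membrane, and the left edge was looked at in detail. Among CN, CR and CV probes, the 376 in columns 1 to 12, a range chosen after its values were seen, had a median difference of 0.30 and 89.9% of them were higher in SCNT High, whereas the 1874 in columns 13 to 72 had a median of -0.03 and 43.5%. Of the called probes, MSH3, CR550746 and CR553112 lie in these 12 columns, and their neighbours differed by means of 0.51, 0.55 and 0.16. The neighbours of the other 6 higher probes differed by means of only -0.09 to 0.10, against differences of 0.95 to 1.56 for the probes themselves.

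**Figure D3:**
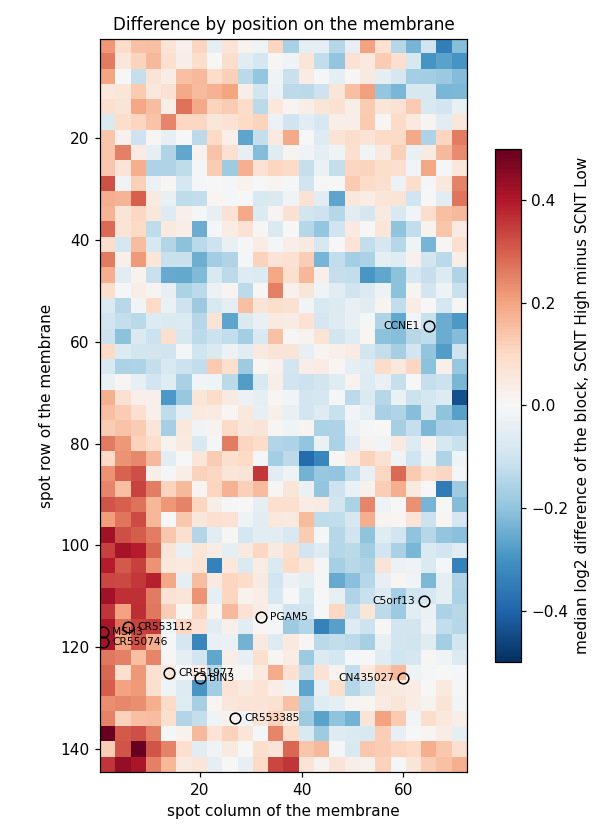
The membrane is drawn by spot column (x axis) and spot row (y axis), each tile being a block of up to 9 cDNA spots coloured by its median log2 difference of SCNT High minus SCNT Low. Circles mark the 10 called probes. The blocks at the lower left edge are red, with MSH3, CR550746 and CR553112 among them, while the other 7 lie in blocks of mixed or pale colour.

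The comparison was therefore repeated after local centring, an alternative chosen after the data were seen, in which the median deviation of the cDNA spots in a window of 9 by 9 spots was taken off each spot on each array. With it the edge columns had a median difference of 0.02, and 32 probes passed the threshold (0.314%), 25 higher (0.245%) and 7 lower (0.0687%) in SCNT High. They include 7 of the 10 probes above. CR553385 differed by 1.56 ± 0.23, C5orf13 by 1.52 ± 0.22, PGAM5 by 1.46 ± 0.26, CN435027 by 1.44 ± 0.21, CR551977 by 1.14 ± 0.16 and BIN3 by 1.09 ± 0.15, and CCNE1 by -0.75 ± 0.16. Adjusted p was 0.0658 for CCNE1, 0.0100 for PGAM5 and 0.00132 for the other 5. With the session as a block added, CCNE1 lost its call (adjusted p = 0.112), and with local centring but without the third session PGAM5 (0.174) and CCNE1 (0.396) did. All 10 SCNT High arrays then lay above all 10 SCNT Low arrays for CR553385, C5orf13 and BIN3, as they did for 5 probes in all (0.0491%).

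The 3 probes of the edge columns lost their calls under local centring alone. With the session as a block as well, 7 of the probes called without local centring passed. Only 6 of these 7 lie outside the edge columns, so an edge probe was called again in that setting. MSH3 kept a difference of 1.30 ± 0.31 with an adjusted p of 0.107, which narrowly missed the threshold of 0.10. CR550746 was at 0.91 ± 0.23 with an adjusted p of 0.149. CR553112 shrank to 0.31 ± 0.09 with an adjusted p of 0.403.

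Of the 25 probes called only after local centring, 19 were higher and 6 lower in SCNT High. They included 11 with CN, CR or CV accessions, 13 with AW or BF and 1 with BM, and all 25 had the same direction without local centring. CR553855 (1.34 ± 0.19, adjusted p = 0.00132), CR551179 (1.09 ± 0.17, adjusted p = 0.00259), CN434087 (1.28 ± 0.21, adjusted p = 0.00535) and CR551094 (1.44 ± 0.28, adjusted p = 0.0343) had the smallest p among those with CN, CR or CV accessions that are more than 1 log2 unit higher. Several of the others were dim, and 17 of the 25 were brighter than water on all 20 arrays. With the session as a block as well, 18 of these 25 stayed past the threshold, and without the third session 5 did. Within the groups, CR551094 varied closely with PGAM5 (r 0.93 over 20 arrays). CN434087 did so with CR553385 and CR553855 with CN435027 (r 0.92 each). These calls may therefore repeat ones listed above, which was not tested.

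**Figure D4:**
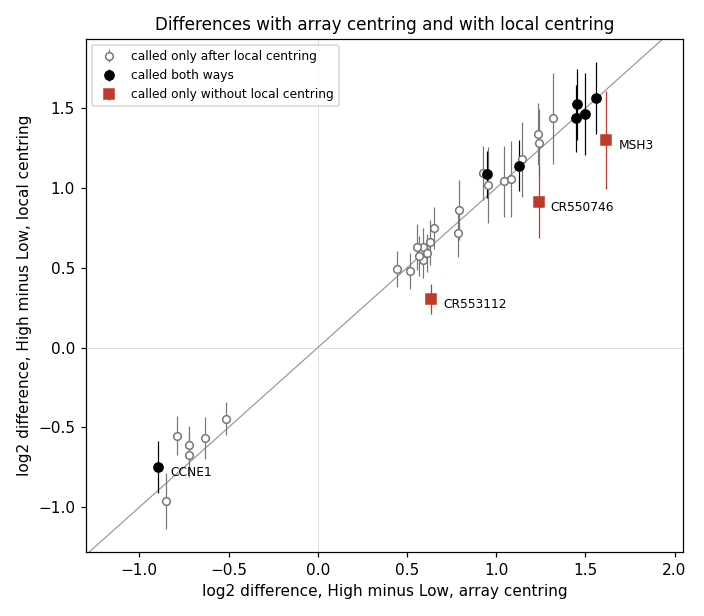
The log2 difference of SCNT High minus SCNT Low with array centring (x axis) is set against that with local centring (y axis, bars are the SE) for the probes called with either, and the line marks equal values. Filled circles are the 7 probes called both ways, open circles the 25 called only after local centring, and red squares the 3 edge probes, which fall below the line.

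Without local centring, the probes next in order of p were CR553855 (1.23), CR551763 (1.04) and BF044056 (1.08), the first of AW or BF accession on the higher side, each with an adjusted p of 0.141. On the lower side the next was BF041564 (-0.88), with an adjusted p of 0.190, and 8 SCNT High arrays below every SCNT Low array. The 10 after it, BF040153, BF040328, AW461822, BM366532, AW464162, AW465124, AW465894, BF044337, AW462835 and BF041471, had adjusted p-values up to 0.533. The 11 probes on this side differed by -0.92 to -0.58 and kept their direction in each session. None of these 11 had a CN, CR or CV accession (0). BF040153, BF040328, AW465894 and AW462835 were at the level of the water spot in SCNT High, with 0, 3, 5 and 1 arrays above it, so their differences there are close to the floor of the array.

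The levels in IVP and SCNT Med conceptuses are given beside those of the extreme groups as a description, since probes called for a wide gap between SCNT High and SCNT Low will often have the other groups between them. PGAM5 averaged 3.15 ± 0.43 in SCNT High, 2.96 ± 1.67 in SCNT Med, 2.48 ± 1.15 in IVP and 1.65 ± 0.67 in SCNT Low (SD, n = 10 each). MSH3 averaged 2.62 ± 0.67, 2.72 ± 1.95, 2.01 ± 1.03 and 1.00 ± 0.82 in the same order, and CCNE1 -0.36 ± 0.35, -0.07 ± 0.40, 0.00 ± 0.56 and 0.53 ± 0.45. The PGAM5 range was widest in SCNT Med, from 0.45 to 5.49, so the intermediate line held a conceptus below all but 1 of the SCNT Low conceptuses and others above every SCNT High conceptus.

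None of the 10 called probes passed the threshold in the comparisons of SCNT High or SCNT Low with IVP or SCNT Med. The 9 higher probes differed by 0.39 to 0.87 in SCNT High minus IVP (adjusted p from 0.287 to 0.556), by -1.01 to -0.13 in SCNT Low minus IVP (adjusted p of 1.00 each), by -0.09 to 0.59 in SCNT High minus SCNT Med and by 0.59 to 1.71 in SCNT Med minus SCNT Low. CCNE1 differed by -0.36, 0.53, -0.30 and -0.60 in these comparisons. Over all 10184 probes limma called 0 for SCNT High minus IVP (0%), 0 for SCNT Low minus IVP (0%), 1 for SCNT High minus SCNT Med (0.00982%) and 0 for SCNT Med minus SCNT Low (0%). An unadjusted p under 0.05 was reached by 1119 (11%), 344 (3.38%), 687 (6.75%) and 436 (4.28%) probes in the same order. IVP and SCNT Med each had 7 arrays in session 1, 3 in session 2 and 0 in session 3. With the session as a block, chosen after the data were seen, limma called 0 probes in each of these comparisons (857, 452, 461 and 397 at an unadjusted p under 0.05), and the 9 higher probes differed by 0.42 to 1.23, by -0.78 to -0.01, by -0.27 to 0.57 and by 0.57 to 1.98. These comparisons share arrays with each other and with SCNT High against SCNT Low.

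The 16 genes with a name were chosen in the study on these same arrays, so their counts are no independent evidence. Of the 16, 4 were called higher and 1 lower in SCNT High, and 11 did not pass. Their median difference was 0.18, against 0.00 over all cDNA probes.

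Of the 6 genes that the study groups under chromatin modification or DNA repair, 2 were called, BIN3 and MSH3, both higher, and the median of the 6 was -0.04. MSH3 is a repair protein, whereas BIN3 is known for its role at membranes. EED, a core subunit of the Polycomb complex that methylates histone H3, had the next largest difference, -0.80 ± 0.32, with the same direction in each session (-0.73, -1.02 and -0.76) and an adjusted p of 1.00. Its level was 1.39 ± 0.88 in SCNT High and 2.18 ± 0.68 in SCNT Low (SD). DFFA, the inhibitor of the nuclease that cuts DNA in dying cells, differed by -0.61 ± 0.30, with 0.07, -0.08 and -1.48 within the sessions. DFFA was brighter than water on only 4 SCNT High and 7 SCNT Low arrays, so its difference lies near the floor of the array. EIF2S3, a subunit of the translation initiation factor that brings the first transfer RNA to the ribosome, differed by -0.21 ± 0.25 with opposite signs in sessions 1 (0.79) and 2 (-1.11). ASF1A, a chaperone that hands histones to DNA, differed by 0.13 ± 0.28, and by -0.20 after local centring.

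Of the 8 genes grouped under cellular morphology or development, CCNE1 alone was called, and the median was 0.15. WNT5B, a secreted ligand of the Wnt family, had the largest positive difference among the other 7, 0.79 ± 0.44, with a wide spread in SCNT Low (1.46 ± 1.48, SD) and with differences of 1.45, 0.73 and -0.19 within the sessions. LHFPL2, which encodes a tetraspan membrane protein, differed by 0.36 ± 0.18, but it was brighter than water on only 5 SCNT High and 2 SCNT Low arrays, so both groups were near the floor. ALG5, an enzyme that builds the sugar chain for protein glycosylation, differed by -0.35 ± 0.21. The endoderm genes showed small differences, APLP2, a relative of the amyloid precursor protein, 0.33 ± 0.23 and FN1, the matrix protein fibronectin, 0.07 ± 0.34. The trophoblast gene PLIN2, which coats lipid droplets, differed by 0.22 ± 0.22, and MYO6, a myosin motor, by 0.00 ± 0.21. None of these 11 uncalled genes had an adjusted p under 1.00 after rounding.

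**Figure D5:**
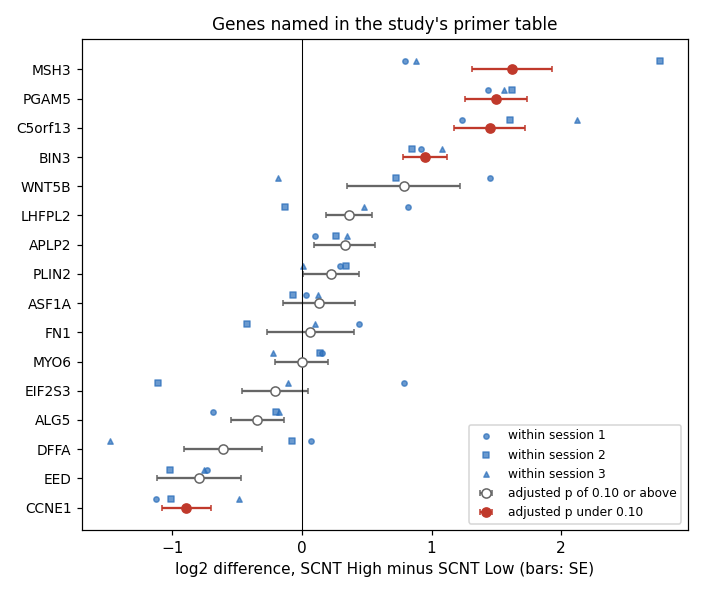
The 16 genes of the primer table are ordered by the log2 difference of SCNT High minus SCNT Low (x axis, large circles, bars are the SE, n = 10 and 10), red where the adjusted p is under 0.10. Small blue symbols give the difference within each session, which lies on one side of 0 in all 3 sessions for the 5 called genes, EED, ALG5, APLP2 and PLIN2.

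The control spots overlapped between the groups, and none passed a test. The mean of the 10 GAPDH spots was 3.37 ± 0.38 in SCNT High and 3.20 ± 0.60 in SCNT Low (SD, difference 0.17, two-sided permutation test over arrays, p = 0.469, adjusted over 6 kinds of spot p = 0.893). Actin differed by 0.08 (permutation p = 0.645), the water spot by 0.16 (permutation p = 0.239), the Cot-1 spot by -0.02 and the poly-dA spot by 0.02. POU5F1, the pluripotency factor of the embryonic disc, was at -0.39 ± 0.42 in SCNT High and -0.05 ± 0.51 in SCNT Low (difference -0.34, permutation p = 0.125, adjusted p = 0.717).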

How the data were processed

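The authors deposited, per array, the mean pixel intensity of each spot and of the membrane around it (Imagene), neither subtracted nor normalized, a shape regularity score and marks for poor spots, and a table of processed log2 values. That table differs from log2 spot intensity only by a constant per array and per probe (slope 1, r 1, 10184 probes). The members and gene lists were chosen with earlier results of these data known. Here log2 intensity was centred on the array mean over cDNA probes, leaving out 30 control and 154 unnamed spots, and SCNT High was compared with SCNT Low by limma 3.58.1 in R 4.3.3. SMVar, named in the methods, was not available. A structural variance model written after its description was an alternative. Named were all probes with an adjusted p under 0.10, then those of smallest p to 12 higher and 12 lower, the 16 genes of the primer table, and GAPDH and actin. No annotation of other probes was used, so gene lists planned by symbol were not counted. Fits were tested on simulated data. Permutation tests of control spots used 100000 resamples (Python 3.11.15, scipy 1.17.1). Other settings, which include normexp with an offset of 50, are compared in the closing section.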

Additional observations from a re-analysis of the deposited data

Results flagged for a closer look

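In a group of 10 arrays, a value was marked where its gap to the nearest of the others took up more of the range of the group than Dixon's critical value allows, which chance does in about 1 of 20 groups. Of 70 groups tested (35 named probes in SCNT High and SCNT Low), 5 held such a value. For MSH3, conceptus BC256 was lowest in SCNT Low at -0.955, below the next at 0.698. For CR550746, the same conceptus was highest in SCNT Low at 2.74, above the next at 1.65. For CR553855, conceptus BC271 was lowest in SCNT Low at -0.164, with the next at 0.987. For AW464162, conceptus BC275 was lowest in SCNT High at -1.76, with the next at -1.16. For FN1, conceptus BC245 was lowest in SCNT High at -1.29, with the next at 0.422.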

How the results depend on the processing

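The count of 10 probes was within 1.5 times under quantile normalization (14), median centring (10), the authors' table (10), without the dimmest 25% of probes (10), the structural variance model (8), the session as a block (13), local centring without the third session (10), and a threshold of 0.05 (7). It was 6 with normexp, 43 with array weights (27 higher, 16 lower), 2 without marked spots, 17 at a threshold of 0.20, 32 with local centring and 33 with the session block added. It was 0 with all groups in one model (smallest adjusted p 0.646), without the third session (smallest adjusted p 0.105) and within sessions 1 and 2, and 24 within session 3 (5 higher, 19 lower). Leaving out each of the 20 arrays gave 7 to 15, 7 to 10 of them shared with the full set, the highest without BC250 of SCNT Low. The causes were not tested. No called probe changed direction under any alternative.

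Among genes that were not called, 37 values changed sign. The MYO6 difference was 0.0286 with normexp, 0.0424 with the session block, 0.14 without the third session, 0.10 without marked spots, 0.15 and 0.14 within sessions 1 and 2, and 0.000646, 0.0311 and 0.0101 with local centring alone, with the block and without the third session, and -0.0939 to 0.10 on leaving out single arrays. The ASF1A difference was -0.00377 without the third session, -0.0808 without marked spots, -0.0734 within session 2, and -0.20, -0.24 and -0.35 in the same local centring settings, and -0.00766 to 0.27 on leaving out arrays. The FN1 difference was -0.42 within session 2 and -0.0385 to 0.37 on leaving out arrays. LHFPL2 was at -0.13 within session 2, EIF2S3 at 0.79 and DFFA at 0.0678 within session 1, DFFA at 0.14 with local centring without the third session, and WNT5B at -0.19 within session 3.

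No paired analysis was possible because the replicate numbers only follow the order of the accessions. The signal of dim probes is limited by the water level of the array.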
